A study of Mus musculus with 46 samples.

Results

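The genes described here are 10 members of the insulin-like growth factor 1 (IGF1) system: the ligand gene *Igf1*, the receptor genes *Igf1r* and *Igf2r*, the binding protein genes *Igfbp3*, *Igfbp4*, *Igfbp5*, *Igfbp6* and *Igfbp7*, and the receptor adaptor genes *Irs1* and *Irs2*. They were chosen by name, with earlier results of these data known. All 10 were found among the 17514 genes counted in gastrocnemius and among the 16987 genes counted in spinalis. The study asked whether loss of α-actinin-3, the fast-fibre sarcomere protein encoded by *Actn3*, alters how mouse skeletal muscle responds to androgen withdrawal and to added androgen. RNA was sequenced from whole muscle of wild-type (WT) mice and of mice with both copies of *Actn3* disrupted in every cell (KO), all of strain C57BL6.

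In the first experiment, male mice aged 8 to 10 weeks had their testes removed (orchidectomy, ORX) or underwent sham surgery, and the gastrocnemius was taken 12 weeks later. Each genotype gave 6 sham libraries, and ORX gave 6 libraries in WT but 5 in KO, since the sixth KO-ORX mouse of the labels has no counts. In the second, female mice received at 4 to 5 weeks of age a silastic tube under the skin that was empty or held 10 mg of dihydrotestosterone (DHT), a potent androgen, and the spinalis, a back muscle, was taken after 6 weeks. Each genotype gave 5 libraries with empty implants and 6 with DHT. Muscle, sex, age and treatment all differ between the experiments, so their levels are set side by side without a test.

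Library totals, in M counts, ran from 43.4 to 50.3 in WT-sham, 39.9 to 55.4 in WT-ORX, 29.5 to 37.5 in KO-sham and 26.7 to 48.5 in KO-ORX. They ran from 37.3 to 51.2 in WT-empty, 34.8 to 53.9 in WT-DHT, 42.5 to 47.8 in KO-empty and 34.9 to 51.7 in KO-DHT. Each KO-sham library was thus smaller than each WT-sham library. Counts of *Actn3* itself separated the genotypes as labelled: they ran from 271459 to 344665 in WT-sham, 334134 to 522718 in WT-ORX, 357573 to 518011 in WT-empty and 222975 to 393368 in WT-DHT. In the KO groups they ran from 1301 to 1653 in KO-sham, 1051 to 2702 in KO-ORX, 2643 to 3913 in KO-empty and 2133 to 3407 in KO-DHT. The 8 myofibre markers were abundant in all 8 groups, with titin (*Ttn*) the highest of them and none at 0.

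As background, IGF1 is made by the liver under growth hormone and also within muscle, where it acts on neighbouring cells. It binds the IGF1 receptor, a tyrosine kinase that recruits the insulin receptor substrates IRS1 and IRS2 and through them activates PI3 kinase, AKT and mTORC1, which promote protein synthesis, while AKT keeps FOXO factors, activators of protein breakdown genes, out of the nucleus. Most IGF in tissue and blood is held by binding proteins that prolong its life or limit its access to the receptor, and the IGF2 receptor, which carries mannose 6-phosphate tagged proteins to lysosomes, clears IGF2. The pathway is known in muscle for fibre growth and repair.

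Levels of different genes were compared as counts-per-million (CPM) per kilobase of annotated exon, averaged over the libraries of a muscle. In the 23 gastrocnemius libraries *Igfbp6* (41.0 ± 6.94, SD), *Igfbp5* (33.1 ± 7.90) and *Igfbp7* (26.0 ± 2.65) had the highest such levels, and their ranges over libraries overlapped in this order. *Igf2r* (14.2 ± 1.79) came next, below the range of *Igfbp7*, and was followed with overlapping ranges by *Igfbp4* (9.88 ± 1.3), *Irs1* (7.45 ± 1.23), *Igfbp3* (4.54 ± 0.940) and *Igf1* (4.34 ± 0.633). *Irs2* (2.18 ± 0.476) and *Igf1r* (1.10 ± 0.158) were the 2 lowest, each apart from its neighbour. In the 22 spinalis libraries the first 3 places were held by the same genes, at 43.5 ± 8.70, 32.6 ± 7.31 and 26.9 ± 4.95 CPM per kilobase, and *Igf1r* was again lowest at 1.06 ± 0.170. Between them lay *Igf2r* (23.2 ± 1.87), *Irs1* (13.8 ± 3.40), *Igfbp4* (5.88 ± 1.05), *Igfbp3* (5.08 ± 0.656), *Igf1* (4.34 ± 0.907) and *Irs2* (3.55 ± 0.736), with gaps between ranges only below *Irs1* and below *Irs2*. Counts of *Irs1*, *Igfbp7* and *Irs2* may include reads of genes on the opposite strand, which cover 30.86%, 7.03% and 2.56% of their exon bases, since the strand setting of the counting is not given in the sources used here.

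**Figure D1:**
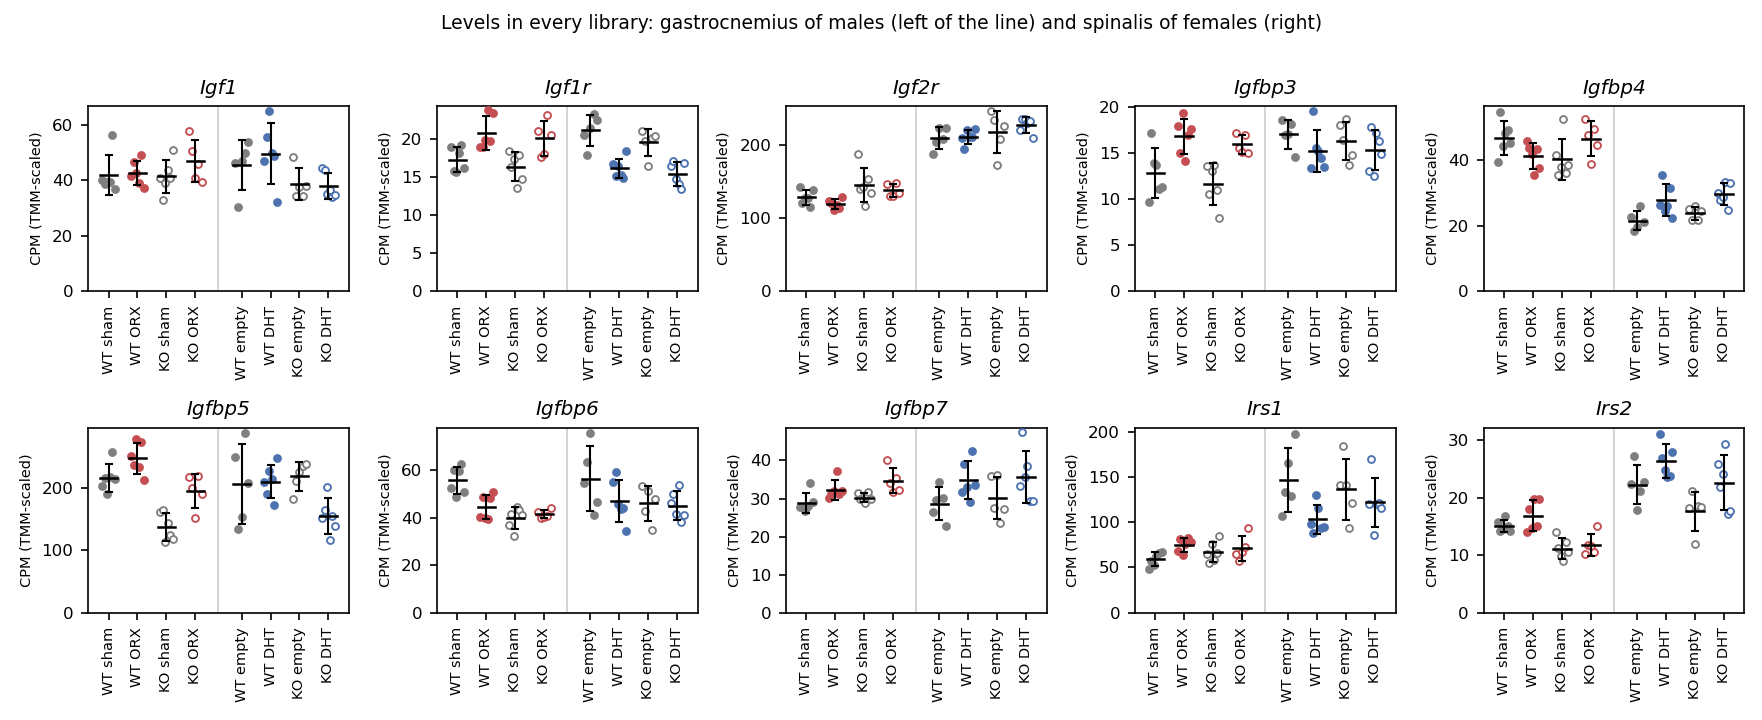
Level of each of the 10 genes in all 45 libraries, in TMM-scaled counts-per-million (CPM, vertical axis, from 0), with gastrocnemius groups left of the grey line and spinalis groups right of it. Each point is 1 library, horizontal bars are group means and error bars are SD; the 6 KO-sham libraries of *Igfbp5* lie between 113 and 165 CPM, below all 6 WT-sham libraries (189 to 257).

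*Igf1*, the ligand, showed no called change with ORX, DHT or genotype. In gastrocnemius the lowest, median and highest levels were 36.9, 39.4 and 56.3 CPM in WT-sham, 37.3, 41.9 and 49.0 in WT-ORX and 32.7, 40.8 and 51.0 in KO-sham, and the 5 KO-ORX libraries stood at 39.5, 40.8, 45.9, 50.5 and 57.8 CPM. The 4 groups overlapped across most of their range. edgeR gave a log2 fold change with ORX of 0.03 ± 0.11 (SE), 95% confidence interval -0.19 to 0.25, q = 0.92 in WT. In KO it was 0.18 ± 0.11 (SE), 95% confidence interval -0.05 to 0.41, q = 0.34, and 0.09 without KO-ORX replicate 1 or 0.29 with library-size scaling, neither called. The WT value is small enough that its sign turned with thinned counts (-0.004), and both intervals exclude a doubling.

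In spinalis the *Igf1* libraries read 30.4, 46.3, 47.0, 50.0 and 53.6 CPM in WT-empty and 34.3, 34.4, 37.4, 38.1 and 48.4 CPM in KO-empty. The lowest, median and highest were 32.0, 49.2 and 65.0 CPM in WT-DHT and 33.8, 35.7 and 44.4 in KO-DHT. WT-DHT spread widest, with 1 mouse (50KR) at its foot, and 5 of its 6 libraries lay above all 6 KO-DHT libraries. The DHT contrast gave 0.13, q = 0.62 in WT and -0.02, q = 0.96 in KO. The WT value was 0.01 without mouse 4KR, 0.03 without 8KR, 0.22 without 50KR and 0.06 with library-size scaling, none called. Between genotypes under DHT the log2 fold change, KO minus WT, was -0.39 ± 0.14 (SE), 95% confidence interval -0.67 to -0.10, q = 0.053, above the threshold of 0.01. Without mouse 50KR this genotype difference was -0.48 with q = 0.0073, and without mouse 8KR its q was 0.16. With 1 library left out it ran from -0.48 to -0.29.

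*Igf1r*, which encodes the signalling receptor, was the only member called with DHT, lower in both genotypes, though not the one with the largest value (*Irs1* in WT and *Igfbp5* in KO). Levels were 17.9, 20.5, 21.4, 22.4 and 23.2 CPM in WT-empty, and 14.9, 15.8 and 18.3 (lowest, median, highest) in WT-DHT. The KO-empty libraries stood at 16.4, 19.6, 20.04, 20.4 and 21.02 CPM, and KO-DHT at 13.4, 15.6 and 17.1. In WT 5 of 6 DHT libraries lay below all 5 empty libraries, and in KO 3 of 6 did, the other 3 lying just above the lowest KO-empty mouse (64KR). The fall was 1.31-fold in WT, with a log2 fold change of -0.39 ± 0.08 (SE), 95% confidence interval -0.56 to -0.22, q = 0.0014 by edgeR. This call was kept in every alternative setting and every fit without 1 library. In KO it was 1.27-fold, at -0.34 ± 0.08 (SE), 95% confidence interval -0.51 to -0.17, q = 0.00998, which only just passed the threshold of 0.01.

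The KO call of *Igf1r* was lost with limma-voom, with library-size scaling, in a fit of only those 2 groups, and in 17 of 22 fits that left out 1 library, where q reached 0.033 without mouse 17KR. Those libraries were 14KR, 7KR, 35KR and 49KR of WT-empty, 15KR, 5KR, 8KR, 34KR and 39KR of WT-DHT, 17KR, 33KR, 61KR and 62KR of KO-empty, and 16KR, 25KR, 40KR and 65KR of KO-DHT, with log2 fold changes from -0.36 to -0.30. The responses of the genotypes were not shown to differ, since the interaction (the DHT effect in KO minus that in WT) was 0.05 ± 0.12 (SE), 95% confidence interval -0.20 to 0.29, q = 0.9.

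With ORX the *Igf1r* values lay the other way without being called. The lowest, median and highest were 15.6, 17.1 and 19.1 CPM in WT-sham, 18.9, 19.7 and 23.8 in WT-ORX and 13.6, 16.8 and 18.4 in KO-sham, with 17.6, 17.9, 20.5, 21.04 and 23.1 CPM in KO-ORX. Most ORX libraries thus stood above most sham libraries of their genotype, with overlap in both. The log2 fold changes were 0.27 ± 0.08 (SE), 95% confidence interval 0.09 to 0.44, q = 0.043 in WT and 0.30 ± 0.09 (SE), 95% confidence interval 0.12 to 0.48, q = 0.03 in KO.

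Because *Igf1r* was called with androgen treatment in both genotypes, the sequence upstream of its start is shown, with letters chosen after the values were seen. The 250 bases before the *Igf1r* start in the RefSeq promoter table lie on the plus strand of chromosome 7 at chr7:67952007-67952256 (GRCm38.p6), outside the exons of the GENCODE M21 annotation, and 77.6% of them are G or C. They read
Igf1r promoter: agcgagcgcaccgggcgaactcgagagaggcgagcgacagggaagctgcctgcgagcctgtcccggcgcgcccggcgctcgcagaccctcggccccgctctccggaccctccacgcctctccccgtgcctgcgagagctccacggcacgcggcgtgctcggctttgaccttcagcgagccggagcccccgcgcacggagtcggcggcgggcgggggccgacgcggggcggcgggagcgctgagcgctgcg
The letters AGAACA (part of an androgen response element), GTAAACA (a FOXO motif) and TATAAA were searched on both strands, and none occurs in this window, so no base is in capitals. Over all 32851 promoters of the same length these letters occur in 16.1%, 3.2% and 12.4%. Of the 10 members' promoters, all found in the table, 0 hold AGAACA, 0 hold GTAAACA and 2 (*Igfbp4* and *Igfbp6*) hold TATAAA. All 250 bases of the *Igf1* window lie within exons of the GENCODE M21 annotation, as do 19 bases of the *Igfbp5* window.

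*Igf2r*, the clearance receptor, was called in no contrast. KO-ORX libraries stood at 129.7, 131, 134, 146 and 148 CPM and all lay above the 6 WT-ORX libraries (110.4, 119 and 128, lowest, median and highest), as did the KO libraries for 1.96% of all genes in KO-ORX against WT-ORX. KO-sham and WT-sham overlapped, at 117, 141 and 187 and 116, 127 and 142 CPM. The log2 differences, KO minus WT, were 0.21, q = 0.12, after ORX and 0.18, q = 0.14, after sham. Without KO-sham replicate 1 the latter was 0.10, q = 0.38. In spinalis the group means ran from 209 to 227 CPM, with q of 0.33 or more in the 4 treatment and genotype contrasts.

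*Igfbp5*, whose product binds IGFs and the extracellular matrix, had the largest genotype difference of the members after sham surgery. In gastrocnemius it stood at 113, 134 and 165 CPM (lowest, median, highest) in KO and 189, 215 and 257 in WT. All 6 KO-sham libraries lay below all 6 WT-sham libraries. The level was 1.57-fold lower in KO, at -0.65 ± 0.10 (SE), 95% confidence interval -0.85 to -0.45, q = 4.9e-05 on the log2 scale. After ORX the KO libraries read 152, 190.2, 199, 216 and 219 CPM and WT-ORX 212, 244 and 277. *Igfbp5* rose 1.42-fold with ORX in KO, 4 of 5 KO-ORX libraries exceeding every KO-sham library, at 0.51 ± 0.10 (SE), 95% confidence interval 0.30 to 0.72, q = 0.0016. Both calls were kept in every alternative setting and every fit without 1 library.

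In WT the ORX contrast of *Igfbp5* gave 0.20 ± 0.10 (SE), 95% confidence interval -0.01 to 0.39, q = 0.24, not called. The interaction, the KO response minus the WT response, was 0.31 ± 0.14 (SE), 95% confidence interval 0.02 to 0.60, q = 0.47, unadjusted p = 0.035 by edgeR, so the response was not shown to differ between genotypes. After ORX the genotype difference was -0.34, q = 0.04, above the threshold. These contrasts share the KO-sham libraries or the WT-ORX libraries, so a low KO-sham group enters both the genotype difference and the KO response to ORX.

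In spinalis *Igfbp5* stood at 134, 154, 208, 249 and 287 CPM in WT-empty, a spread wider than in any other group. KO-empty read 182, 210.0, 225, 234 and 238 CPM, WT-DHT 172, 211 and 247 (lowest, median, highest) and KO-DHT 116, 153 and 201. In KO 5 of 6 DHT libraries lay below all 5 empty libraries, while in WT the DHT libraries lay within the range of the empty ones. The log2 fold changes with DHT were 0.02, q = 0.94, in WT and -0.50, q = 0.038, in KO. The interaction was -0.52 ± 0.22 (SE), 95% confidence interval -0.97 to -0.07, q = 0.24, unadjusted p = 0.025, and the genotype difference under DHT was -0.44, q = 0.038. None of these 4 values was called, and KO-empty against WT-empty gave 0.08, q = 0.82.

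*Igfbp6*, a binding protein that prefers IGF2, was lower in KO-sham than in WT-sham. KO-sham ran at 32.2, 41.4 and 44.4 CPM (lowest, median, highest) and WT-sham at 48.5, 56.1 and 62.5, with no overlap. The level was 1.39-fold lower in KO, at -0.48 ± 0.08 (SE), 95% confidence interval -0.64 to -0.32, q = 0.00018, a call kept in every setting and every fit without 1 library. In WT it also fell with ORX: WT-ORX ran at 39.3, 44.3 and 50.9 CPM, and 5 of 6 libraries lay below all 6 WT-sham libraries. The fall was 1.25-fold, at -0.32 ± 0.08 (SE), 95% confidence interval -0.48 to -0.16, q = 0.0075. That call was lost with library-size scaling, in a fit of only those 2 groups, and without replicate 2, 4 or 5 of WT-sham or 1, 3 or 4 of WT-ORX, where q ran from 0.021 to 0.026 and the log2 fold change from -0.30 to -0.29.

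KO-ORX libraries of *Igfbp6* stood at 40.0, 40.3, 40.8, 42.3 and 44.0 CPM, within the KO-sham range, with a log2 fold change of 0.05, q = 0.76. After ORX the genotypes overlapped, at -0.10, q = 0.56, for KO minus WT. The interaction was 0.37 ± 0.11 (SE), 95% confidence interval 0.14 to 0.61, q = 0.22, unadjusted p = 0.0031, and was not called. In spinalis *Igfbp6* was not called, at -0.26, q = 0.24, with DHT in WT, -0.03, q = 0.93, in KO and -0.29, q = 0.25, between empty groups.

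For *Igfbp3*, the main carrier of IGF1 in blood, the ORX contrasts passed a q of 0.05 and not 0.01. WT-sham ran at 9.72, 12.5 and 17.2 CPM (lowest, median, highest), WT-ORX at 14.1, 17.2 and 19.3 and KO-sham at 7.95, 12.0 and 13.7, and KO-ORX stood at 15.0, 15.1, 15.5, 16.9 and 17.2 CPM. All 5 KO-ORX libraries lay above all 6 KO-sham libraries, which held for 1.7% of all genes in KO-ORX against KO-sham. In WT 1 sham library (17.2) overlapped the ORX range. edgeR gave 0.39 ± 0.12 (SE), 95% confidence interval 0.14 to 0.64, q = 0.037 in WT and 0.46 ± 0.13 (SE), 95% confidence interval 0.19 to 0.72, q = 0.02 in KO. Without WT-sham replicate 2 the WT value was 0.49 with q = 0.0062, and the KO value was called with DESeq2 and with library-size scaling. The WT q was 0.1 without WT-sham replicate 1, and the KO q was 0.054 without KO-ORX replicate 4. With 1 library left out the values ran from 0.32 to 0.49 in WT and from 0.37 to 0.51 in KO. With DHT the values were -0.16, q = 0.36, in WT and -0.09, q = 0.65, in KO.

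*Igfbp4*, which mostly restrains IGF action until a protease cleaves it, was called in no contrast. In spinalis WT-empty stood at 18.4, 19.5, 21.03, 22.7 and 26.1 CPM and WT-DHT at 22.4, 26.2 and 35.6 (lowest, median, highest). KO-empty read 21.6, 21.8, 24.5, 25.0 and 26.1 CPM and KO-DHT 24.6, 29.4 and 33.5. DHT libraries were mostly above the empty libraries of both genotypes, with overlap. DHT gave 0.36 ± 0.11 (SE), 95% confidence interval 0.14 to 0.59, q = 0.021 in WT and 0.32 ± 0.11 (SE), 95% confidence interval 0.09 to 0.54, q = 0.062 in KO. The WT value passed the threshold with DESeq2, and without mouse 35KR (0.44, q = 0.0069) or 50KR (0.41, q = 0.0086). Its q was 0.067 without mouse 4KR and reached 0.13 among the other settings. With 1 library left out the WT value ran from 0.28 to 0.44.

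In gastrocnemius the *Igfbp4* contrasts with ORX had opposite signs, -0.18, q = 0.24, in WT and 0.21, q = 0.17, in KO (0.32, q = 0.042, with library-size scaling). The interaction of 0.39 ± 0.13 (SE), 95% confidence interval 0.12 to 0.66, q = 0.3 (unadjusted p = 0.0066) was not called. *Igfbp7*, a low-affinity binding protein made largely by vessel cells, had group means from 28.9 to 34.7 CPM in gastrocnemius and from 28.7 to 35.6 CPM in spinalis. Its 8 treatment and genotype contrasts ran from 0.04 to 0.28 on the log2 scale, with q from 0.051 to 0.90, and none was called.

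*Irs2*, an adaptor of the insulin and IGF1 receptors, was lower in KO than in WT gastrocnemius after either operation. KO-sham ran at 8.96, 10.9 and 14.0 CPM (lowest, median, highest) and WT-sham at 14.2, 14.8 and 16.8, without overlap. KO-ORX libraries stood at 10.3, 10.55, 11.6, 11.7 and 15.0 CPM and WT-ORX at 14.0, 16.5 and 19.8. After ORX 4 of 5 KO libraries lay below all 6 WT libraries. The level was 1.36-fold lower in KO after sham, at -0.44 ± 0.11 (SE), 95% confidence interval -0.66 to -0.22, q = 0.0071, and 1.42-fold lower after ORX, at -0.51 ± 0.11 (SE), 95% confidence interval -0.74 to -0.28, q = 0.004.

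Neither *Irs2* call held in all fits. The sham call was lost without replicate 2, 3, 4 or 6 of KO-sham or 1, 3, 4 or 5 of WT-sham, where q ran from 0.012 to 0.023 and the log2 difference from -0.45 to -0.39. The ORX call was lost with library-size scaling, in a fit of only those 2 groups, and without replicate 1, 2, 3 or 4 of KO-ORX or 4 or 6 of WT-ORX, where q ran from 0.011 to 0.017 and the difference from -0.51 to -0.46. ORX itself gave 0.16, q = 0.41, in WT and 0.09, q = 0.69, in KO. In spinalis KO-empty stood at 12.0, 18.2, 18.3, 18.5 and 21.1 CPM against 17.8, 21.2, 22.3, 22.7 and 27.2 in WT-empty. The groups overlapped, and the log2 difference of -0.34, q = 0.15, was not called, nor was that under DHT (-0.22, q = 0.28).

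*Irs1*, the other adaptor, was not called. With ORX in WT it gave 0.35 ± 0.11 (SE), 95% confidence interval 0.12 to 0.57, q = 0.042, from 48.6, 60.1 and 67.7 CPM (lowest, median, highest) in WT-sham to 63.9, 77.2 and 82.7 in WT-ORX. With DHT in WT it gave -0.51 ± 0.17 (SE), 95% confidence interval -0.85 to -0.17, q = 0.034, with WT-empty at 107, 129.7, 134, 166 and 198 CPM and WT-DHT at 88.0, 96.2 and 130.2. The signs of these 2 WT contrasts differ as they do for *Igf1r*. In KO the values were 0.08, q = 0.75, with ORX and -0.16, q = 0.6, with DHT, and the interactions, -0.27, q = 0.61, and 0.35, q = 0.53, were not called.

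**Figure D2:**
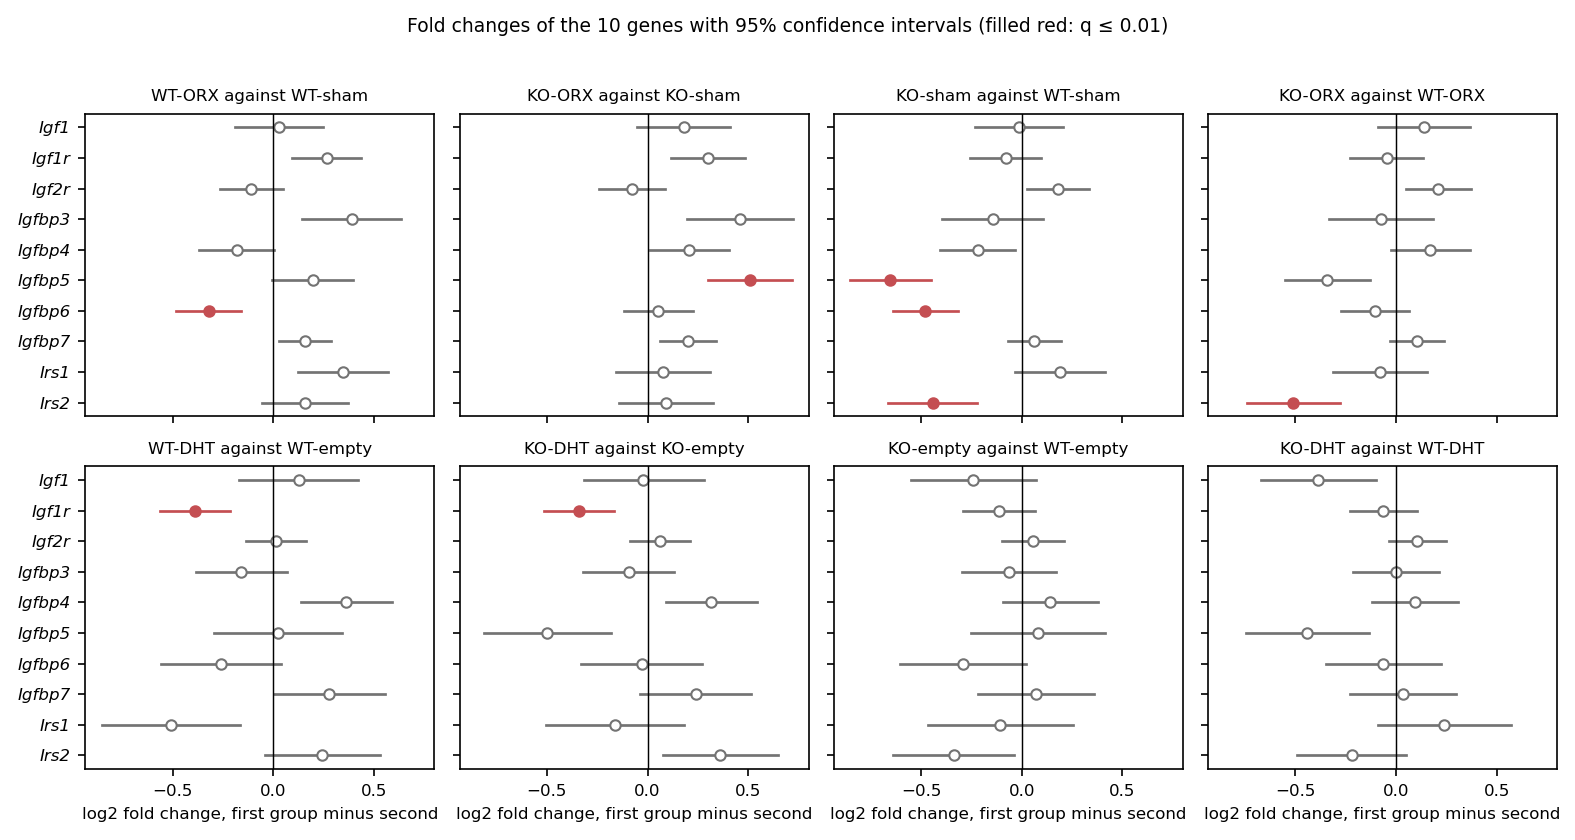
Log2 fold change (horizontal axis, first group minus second) of each gene in the 4 gastrocnemius contrasts (top) and 4 spinalis contrasts (bottom); points are edgeR estimates, bars are 95% confidence intervals, and filled red marks q of 0.01 or less. The 3 red points of KO-sham against WT-sham are *Igfbp5* (-0.65), *Igfbp6* (-0.48) and *Irs2* (-0.44), and *Igf1r* is red in both DHT contrasts (-0.39 and -0.34).

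Read contrast by contrast, the called members were few. In WT-ORX against WT-sham 1 of 10 was called (*Igfbp6*, lower), where 5.45% of all genes were called (955 of 17514) and 3.41% were lower. In KO-ORX against KO-sham 1 of 10 was called (*Igfbp5*, higher), against 5.57% of all genes, and 1.99% that were higher. With 10 members, 1 call is near what such shares amount to, so neither count is a result about the set. The median log2 fold change over the members was 0.16 in WT and 0.19 in KO, beside 0.01 over all genes in each, and 7 and 9 of the 10 values were above 0.

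KO-sham against WT-sham called 3 of 10 members, all lower (*Igfbp5*, *Igfbp6* and *Irs2*), against 5.3% of all genes in either direction and 2.82% in this direction. The same 3 had groups that did not overlap, which held for 2.74% of all genes in this direction. With 10 members, 3 calls are few, and no test was made of the set. The median log2 difference of the members was -0.11, beside -0.01 over all genes. KO-ORX against WT-ORX called 1 of 10 (*Irs2*, lower), against 3.8% of all genes, and 2.73% that were lower, with a median of -0.06 beside 0.01.

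WT-DHT against WT-empty called 1 of 10 members (*Igf1r*, lower), where 11.3% of all genes were called and 4.64% were lower. KO-DHT against KO-empty called 1 of 10 (*Igf1r*, lower), where 4.62% were called and 1.75% were lower. With 10 members, 1 call is the smallest count above 0, so neither is read as a result about the members. KO-empty against WT-empty called 0 of 10 with edgeR, DESeq2 and limma-voom, where 4.25% of all genes were called, and 1 was at an unadjusted p under 0.05, as were 23.4% of all genes. KO-DHT against WT-DHT called 0 of 10 with these tools, where 11.6% of all genes were called, and 2 (*Igf1* and *Igfbp5*) were at an unadjusted p under 0.05, as were 29.6% of all genes. Both counts at that p lie below the share of all genes. In the other treatment and genotype contrasts the counts lay above it. They were 5 of 10 in WT-ORX against WT-sham, where 22.3% of all genes were at that p. KO-ORX against KO-sham had 5 (24.5%), KO-sham against WT-sham 5 (23.3%) and KO-ORX against WT-ORX 3 (18.9%). With DHT there were 4 in WT (29.8%) and 4 in KO (25.2%), and no test was made of the set. Medians of the members lay between -0.08 and 0.02 in the 4 spinalis contrasts.

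For the interactions the threshold was q of 0.05. The genotype by ORX interaction called 0 of 10 members with edgeR, DESeq2 and limma-voom, and 0.0228% of all genes (4 of 17514) with edgeR. At an unadjusted p under 0.05 were 3 members, *Igfbp4*, *Igfbp5* and *Igfbp6*, each with a more positive response in KO, beside 9.61% of all genes. The genotype by DHT interaction also called 0 of 10 with each tool, against 3.24% of all genes, with 1 (*Igfbp5*) at an unadjusted p under 0.05, as were 15.1% of all genes. All these directions are relative to the scaling of libraries. In KO-ORX against KO-sham, scaling by library size in place of TMM put the median of all genes at 0.121 on the log2 scale, and higher genes went from 35.7% to 78.6% of those called. In WT-ORX against WT-sham they went from 37.5% to 54.4%, and in WT-DHT against WT-empty from 58.8% to 43.6%. Under library-size scaling KO-ORX against KO-sham called 4 members (*Igf1r*, *Igfbp3*, *Igfbp5* and *Igfbp7*), all higher, where 900 of 17514 genes were called.

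Whole muscle holds several cell types, and bulk counts cannot tell fewer cells of a type from less RNA per cell. The binding proteins are expressed in connective tissue, so its markers are given beside their differences. Of 9 fibroblast markers 0 were called by edgeR in KO-sham against WT-sham. Their summed level was 2128 ± 339 CPM (SD) in KO-sham, 2613 ± 491 in WT-sham, 2421 ± 324 in WT-ORX and 3144 ± 1443 in KO-ORX, with *Dcn* the most abundant and no marker at 0. Of 5 tenocyte markers 0 were called between the sham groups, with a median log2 difference of -0.77, and they summed to 320.2 ± 104 CPM in KO-sham, 474 ± 157 in WT-sham, 486 ± 140.4 in WT-ORX and 563 ± 201 in KO-ORX, with *Thbs4* the most abundant. These sums moved in the same direction as *Igfbp5* between the sham groups and in KO with ORX. In KO-ORX against WT-ORX both sums were higher in KO, while *Igfbp5* was lower (means of 195 and 247 CPM). With ORX in WT the fibroblast sum was lower and the tenocyte sum higher, while *Igfbp5* gave 0.20, not called. *Dcn* alone had means of 965 CPM in KO-sham and 905 in KO-ORX. The part of these markers in the *Igfbp5* differences was not tested. In KO-ORX the fibroblast sum was 5374 and 3787 CPM in replicates 1 and 2. It was 1908, 2516 and 2134 CPM in replicates 3, 4 and 5.

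Between the sham groups 3 other markers were called: *Acta1* of 8 myofibre markers (lower in KO, -0.37), *Myf5* of 4 satellite cell markers (higher, 0.75) and *Csf1r* of 6 macrophage markers (lower, -0.29). No endothelial, pericyte, Schwann cell, adipocyte or red blood cell marker was called there. With ORX *Lum* of the fibroblast list rose in both genotypes (0.59 in WT, 0.57 in KO), *Pdgfra* fell in WT (-0.23), and *Fmod* of the tenocyte list rose in KO (1.23). The fibroblast list had 2 of 9 genes above 0 in WT (median -0.06) and 7 of 9 in KO (median 0.24). The myofibre list had 5 of 8 above 0 in WT and 1 of 8 in KO. Of the myofibre markers *Myh1* (-0.61 in WT and in KO) and *Mb* (-0.50 in WT, -0.56 in KO) fell in both genotypes and *Pvalb* rose in WT (0.29), while *Csf1r* fell in WT (-0.31) and 1 of 6 pericyte markers (*Notch3*) rose in KO (0.46), where 2 of 6 were above 0 and the list (*Rgs5* most abundant) summed to 706 ± 40.7 CPM in KO-sham and 683 ± 29.9 in KO-ORX. In KO-ORX against WT-ORX *Ckm* (-0.37), *Acta1* (-0.50) and *C1qa* (-0.48) were lower. The macrophage markers (*Mrc1* most abundant, none at 0) summed to 134 ± 11.5 CPM in WT-sham, 120.0 ± 6.31 in WT-ORX, 111 ± 15.6 in KO-sham and 112 ± 10.53 in KO-ORX, highest in WT-sham as was *Igfbp6* (means of 55.7, 44.5, 40.0 and 41.5 CPM), and their part in its differences was not tested. In spinalis the macrophage markers summed to 115 ± 15.8 CPM in WT-empty, 123 ± 24.8 in WT-DHT, 131 ± 38.0 in KO-empty and 125 ± 11.1 in KO-DHT. That sum was lowest in WT-empty, where *Igfbp6* had its highest spinalis mean (56.4 CPM). The sham contrast also differs in depth, since all KO-sham libraries are smaller. With counts thinned to the smallest library the calls of *Igfbp5*, *Igfbp6* and *Irs2* were kept.

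With DHT all 7 endothelial markers had log2 fold changes above 0 in both genotypes, and 2 were called in WT and 1 in KO. They summed to 230.3 ± 25.2 CPM in WT-empty, 290.5 ± 20.7 in WT-DHT, 252 ± 19.96 in KO-empty and 297 ± 35.7 in KO-DHT, with *Pecam1* the most abundant and none at 0. *Rgs5* of the pericyte list rose in both genotypes (0.45 in WT, 0.34 in KO). The fibroblast list had 1 of 9 genes higher (*Dcn*) and 1 lower in each genotype (*Pdgfra* in WT, *Lum* in KO), with 3 of 9 above 0 in each and medians of -0.05 in WT and -0.25 in KO. Tenocyte markers (*Fmod* most abundant) summed to 112 ± 25.0 CPM in WT-empty, 123 ± 65.9 in WT-DHT, 128 ± 30.8 in KO-empty and 100.2 ± 39.8 in KO-DHT. All 5 were below 0 with DHT in KO (median -0.49, 0 called), and in KO-DHT against WT-DHT the median was -0.58 with 1 of 5 (*Scx*) lower, the directions that *Igfbp5* had there. The interaction median was -0.88 with 0 called, and the part of these markers in the *Igfbp5* values was not tested. In both genotypes 4 other lists had lower sums in the DHT groups, as *Igf1r* had lower levels. Adipocyte markers (*Cfd* most abundant, 1 of 5 called lower in WT, 0 in KO) summed to 712 ± 204 and 455 ± 172 CPM in WT-empty and WT-DHT, and to 783 ± 167 and 603 ± 241 in KO. Schwann cell markers (*Mbp* most abundant, 0 of 5 called) summed to 45.6 ± 6.19 and 34.5 ± 8.33 CPM in WT and 48.6 ± 2.71 and 42.1 ± 11.7 in KO, with all 5 log2 fold changes below 0 in each. Satellite cell markers (*Vcam1* most abundant, 0 of 4 called) summed to 10.54 ± 1.96 and 7.97 ± 1.14 CPM in WT and 13.9 ± 2.65 and 12.2 ± 1.81 in KO. Myofibre markers summed to 274100 ± 20146 and 237660 ± 26876 CPM in WT and 234170 ± 15981 and 214450 ± 19998 in KO, with 1 of 8 called, higher, in WT and 0 in KO. No marker of these lists was at 0, and the part of cell composition in the fall of *Igf1r* was not tested.

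The other genes of the pathway, taken from 8 lists, numbered 58 tested in gastrocnemius and 59 in spinalis. With ORX 6 rose and 1 fell in WT (12.1% of the list, against 5.45% of all genes), and 5 rose and 2 fell in KO (12.1%, against 5.57%). With DHT 5 rose and 9 fell in WT (23.7%, against 11.3%), and 1 rose and 6 fell in KO (11.9%, against 4.62%). Genes outside the 10 members were chosen for description after values were seen, and not all called genes are described below. Those left out include *Tsc1*, lower in KO with DHT (-0.55, q = 5.1e-07 by edgeR). They also include *Grb2*, higher in KO with empty implants (0.48, q = 6.8e-06 by edgeR). Among the pathway genes with the largest changes were *Stc2*, an inhibitor of the proteases that cleave IGFBP4 and IGFBP5, and the feedback regulators *Grb10* and *Socs2*.

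*Stc2* stood at 1.48, 1.84 and 2.45 CPM (lowest, median, highest) in WT-sham, 5.50, 7.09 and 8.76 in WT-ORX and 0.968, 1.83 and 2.14 in KO-sham, and at 3.44, 4.56, 4.86, 5.21 and 5.48 CPM in KO-ORX. No ORX library overlapped the sham range of its genotype. The rise was 3.72-fold in WT (log2 1.89 ± 0.16, q = 3.2e-09) and 2.74-fold in KO (log2 1.46 ± 0.17, q = 2.1e-06). In spinalis WT-empty stood at 9.40, 9.92, 13.7, 16.1 and 18.3 CPM and KO-empty at 3.43, 3.97, 4.21, 5.26 and 7.15, without overlap. DHT brought *Stc2* to 0.612, 0.830 and 1.33 CPM in WT and 0.547, 0.903 and 1.13 in KO, below every empty library. The log2 fold changes were -3.86 ± 0.24, q = 9.9e-12, in WT and -2.42 ± 0.24, q = 1.6e-07, in KO.

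KO-empty was lower than WT-empty by a log2 difference of -1.49 ± 0.22, q = 0.00012. The DHT groups of both genotypes reached a like level, and the interaction was 1.44 ± 0.33, q = 0.012, a smaller fall in KO. This interaction and the difference between the empty groups share the KO-empty and WT-empty libraries. It was lost with limma-voom (q = 0.066). The ORX interaction of *Stc2* was -0.44, q = 0.57, not called.

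*Grb10*, an adaptor that dampens insulin and IGF1 receptor signalling, rose with ORX from 46.4 ± 5.91 to 77.1 ± 8.95 CPM (mean ± SD) in WT and from 48.0 ± 6.93 to 77.4 ± 9.21 in KO. With DHT it fell from 103 ± 4.77 to 34.2 ± 5.94 CPM in WT and from 92.9 ± 10.9 to 44.5 ± 5.40 in KO. Treated and control libraries did not overlap in any of the 4 contrasts. On the log2 scale the changes were 0.73 ± 0.10, q = 5.6e-06, and 0.69 ± 0.10, q = 4.6e-05, with ORX in WT and KO. With DHT they were -1.59 ± 0.11, q = 3.6e-11, and -1.06 ± 0.10, q = 1.7e-07. The DHT interaction (0.53 ± 0.15, q = 0.047) was lost with library-size scaling, with thinned counts and in 16 of 22 fits without 1 library (0.46 to 0.55, q up to 0.09).

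*Socs2*, a suppressor of growth hormone receptor signalling, rose from 12.2 ± 2.34 to 25.4 ± 5.00 CPM with ORX in WT and from 10.9 ± 3.82 to 21.7 ± 4.72 in KO. With DHT it fell from 33.4 ± 8.41 to 7.78 ± 1.00 CPM in WT and from 19.5 ± 6.22 to 7.28 ± 3.54 in KO, where 1 KO-DHT library (14.4) overlapped the empty range. The log2 fold changes were 1.05 ± 0.18, q = 0.00023, and 0.99 ± 0.19, q = 0.0011, with ORX, and -2.10 ± 0.24, q = 5.1e-07, and -1.44 ± 0.24, q = 0.00034, with DHT. *Stc2*, *Grb10* and *Socs2* thus had called rises with ORX and called falls with DHT in both genotypes, and these 12 calls were kept in every setting and every fit without 1 library. ORX contrasts of the 2 genotypes share no libraries, nor do the DHT contrasts.

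**Figure D3:**
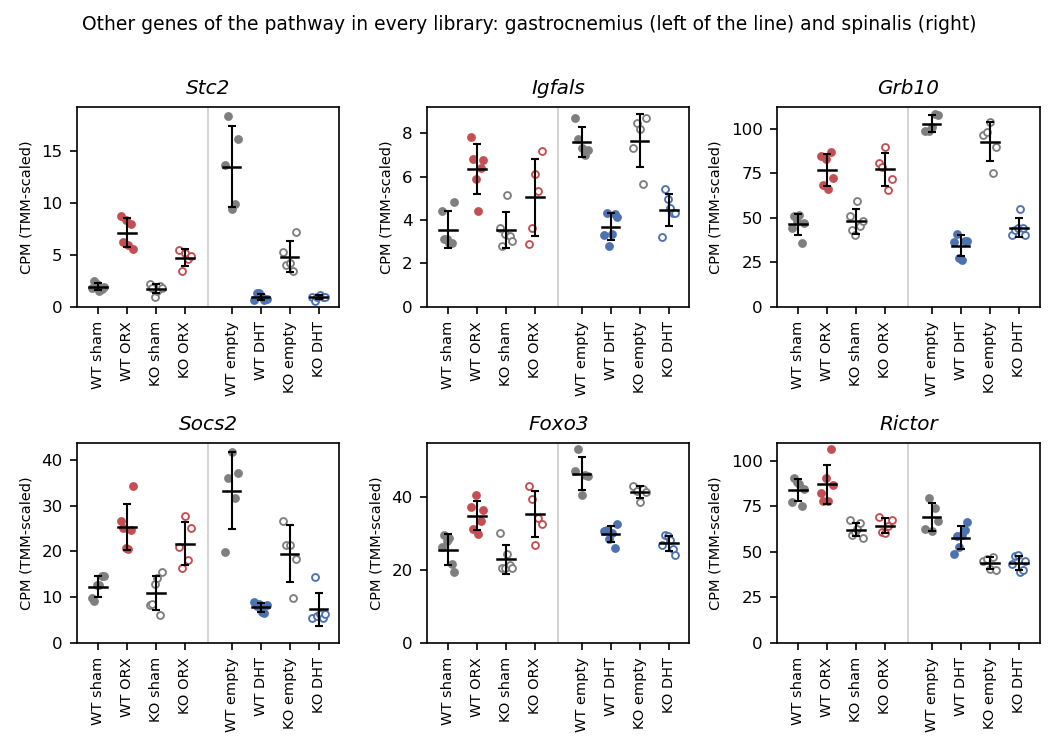
Level in CPM (vertical axis, from 0) of 6 other genes of the pathway in all 45 libraries, gastrocnemius left of the grey line and spinalis right of it; points are libraries, horizontal bars group means and error bars SD. *Stc2*, *Grb10* and *Socs2* stand higher in ORX than in sham groups and lower in DHT than in empty groups, and *Rictor* stands lower in KO than in WT groups (57.5 to 67.4 CPM in KO-sham, 75.3 to 90.3 in WT-sham).

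*Igfals*, which encodes the acid-labile subunit of the circulating IGF complex, was the only gene of its 5-gene list of ligands and carriers that was counted in both muscles. It rose with ORX in WT (log2 0.84 ± 0.19, q = 0.0036), a call lost with thinned counts and without replicate 2, 3, 4 or 5 of WT-sham or 1 of WT-ORX (0.77 to 0.80, q of 0.011 or 0.012), and gave 0.53, q = 0.096, in KO. It fell with DHT in WT (-1.04 ± 0.14, q = 2.9e-06) and KO (-0.78 ± 0.13, q = 0.00042). The other 4 genes of that list (*Igf2*, *Igfbp1*, *Igfbp2* and *Igfbpl1*) are absent from the counts under these names.

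*Foxo3*, a transcription factor of atrophy genes, rose with ORX in KO (0.62 ± 0.12, q = 0.0014) and gave 0.45, q = 0.012, in WT. It fell with DHT from 46.6 ± 4.52 to 29.9 ± 2.26 CPM in WT (-0.64 ± 0.07, q = 1.6e-07) and from 41.5 ± 1.62 to 27.4 ± 2.15 in KO (-0.60 ± 0.07, q = 2e-06). All DHT libraries lay below all empty libraries of their genotype. *Foxo4* rose in WT with ORX (0.26 ± 0.05, q = 0.00077), and *Slc2a4*, the insulin-responsive glucose transporter, fell in KO with ORX (-0.35 ± 0.08, q = 0.003), a call lost with library-size scaling, in a fit of only those 2 groups, and without KO-ORX replicate 1 (-0.33, q just above 0.01) or 5 (-0.34, q = 0.011).

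*Sh2b2*, an adaptor of receptor tyrosine kinases listed with the negative regulators, responded differently to DHT in the 2 genotypes. It rose from 2.47 ± 0.392 to 5.83 ± 0.704 CPM in WT (1.23 ± 0.16, q = 2.4e-06), and stood at 3.84 ± 0.282 and 4.48 ± 1.21 CPM in KO (0.22, q = 0.39, not called). The interaction of -1.01 ± 0.22, q = 0.0077, was kept in every setting and fit. *Akt1* of the PI3 kinase and AKT list also had a called DHT interaction (-0.35 ± 0.09, q = 0.037), one lost with library-size scaling, with thinned counts and in 14 of 22 fits without 1 library (-0.35 to -0.32, q up to 0.081). With *Stc2* and *Grb10* these made 4 genes, 6.78% of those tested, against 3.24% of all genes, and the ORX interaction called 0 of 58 with edgeR.

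Between genotypes the called genes of the pathway lists were more often lower in KO, as were those of all genes. The lists counted 1 higher and 5 lower after sham (10.3%, against 5.3% of all genes), 0 and 3 after ORX (5.17%, against 3.8%), 2 and 8 with empty implants (16.9%, against 4.25%) and 4 and 12 with DHT (27.1%, against 11.6%). Over all genes the called were 434 higher and 494 lower, 188 and 478, 298 and 424, and 872 and 1106 in the same order, and the split rests on the scaling. With library-size scaling the higher genes went from 46.8% to 38.5% of those called after sham, 28.2% to 46.9% after ORX, 41.3% to 52.9% with empty implants and 44.1% to 65.3% with DHT. *Rictor*, a subunit of mTORC2, was lower in KO in all 4 contrasts, at log2 differences of -0.43 ± 0.07, -0.44 ± 0.07, -0.65 ± 0.09 and -0.40 ± 0.08, with q from 2.9e-05 to 0.00064, and no KO library reached the WT range in any of them. *Stat5b*, a transcription factor downstream of the growth hormone receptor, was also lower in all 4 (-0.38, -0.52, -0.56 and -0.45), the sham call being lost in a fit of only those groups and without replicate 3, 4, 5 or 6 of KO-sham or 1, 4 or 6 of WT-sham (-0.39 to -0.33, q up to 0.02).

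*Jak2*, the kinase between that receptor and STAT5, was lower in KO after ORX (-0.38 ± 0.09, q = 0.0057), with empty implants (-0.49 ± 0.10, q = 0.0034) and with DHT (-0.56 ± 0.10, q = 0.00012). The first was lost with library-size scaling and without replicate 1, 4 or 5 of KO-ORX or 1, 3 or 6 of WT-ORX (-0.39 to -0.32, q up to 0.027). The second was lost in a fit of only those groups and without mouse 7KR (-0.44, q = 0.013) or 64KR (-0.41, q = 0.011). *Jak2* also fell with ORX in WT (-0.40 ± 0.08, q = 0.0018) and KO (-0.54 ± 0.09, q = 0.00017). *Htra1*, a protease that cleaves binding proteins, was lower in KO after sham (-0.48 ± 0.09, q = 0.00067), with empty implants (-0.56 ± 0.12, q = 0.0036) and with DHT (-0.58 ± 0.11, q = 0.00044), the second being lost in a fit of only those groups and without mouse 7KR, 49KR, 61KR or 62KR (-0.55 to -0.48, q up to 0.015). *Grb14*, a relative of *Grb10*, was higher in KO with empty implants (0.58 ± 0.11, q = 0.0013) and with DHT (0.51 ± 0.10, q = 6e-04). Contrasts within an experiment share libraries with one another, so these counts are not independent.

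Across the 45 libraries of both muscles, with each gene centred on its mean within each experiment, the genes whose log2 levels were most like a member's were found among the 16642 genes in both tables, and are given for 9 of the 10 members. *Igf1r* was most like *Lpp* (Pearson r = 0.802), *Aebp1* (0.802) and *Crebbp* (0.801). *Irs2* was most like *Eya1* (0.769), *Igfbp5* like *Tgfb3* (0.737), *Igfbp4* like *Carhsp1* (0.737) and *Igf2r* like *Tbc1d22a* (0.723). The highest r was lower for *Igfbp3* (*Itih5*, 0.675), *Irs1* (*Nudt4*, 0.665), *Igf1* (*Dpysl3*, 0.664) and *Igfbp6* (*Gpnmb*, 0.642). These values describe the libraries, which also share treatment, genotype and depth.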

How the data were processed

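RNA from 45 muscle samples was used. The authors aligned reads with STAR 2.7.1b and counted them per gene with featureCounts (Subread 2.0.0) on GRCm39, and the deposited values are raw counts. Gene names and lengths came from GENCODE M21. The strand setting and annotation release of the counting were not given. Each experiment was fitted with edgeR 4.0.16 (R 4.3.3) over all genes: TMM scaling, 4 group means, quasi-likelihood F test and Benjamini-Hochberg q. The filter of 0.5 CPM in 2 libraries removed 0 genes. Genes were called at q of 0.01 or less, and interactions at 0.05. Alternatives were DESeq2 1.42.0, limma-voom 3.58.1, library-size scaling, a stricter filter (10 counts in each library), thinning to the smallest library, only the groups compared, a replicate block (gastrocnemius), the other threshold, and each library left out in turn. Likeness used log2 CPM with a prior count of 2. Library totals are given with the groups above. The sixth KO-ORX sample has no counts and was not used, and 1 gene of the pathway lists was left out of all counts and values. The members and gene lists were chosen with earlier results of these data known.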

Additional observations from a re-analysis of the deposited data

Results flagged for a closer look

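A test for a single library far from the rest of its group was run on each of the 10 members in each of the 8 groups, and it marked 6 of 80. Chance alone marks about 1 in 20 groups. *Igf1* was high in WT-sham replicate 5 (56.3 CPM, where the other 5 libraries ran from 36.9 to 40.2), and *Igfbp7* was high in the same library (34.1, others 26.7 to 29.2). *Igfbp7* was also high in WT-ORX replicate 4 (37.2, others 30.1 to 32.0). *Igf1* was low in WT-empty mouse 4KR (30.4, others 46.3 to 53.6). In KO-empty mouse 64KR, *Igf1r* (16.4, others 19.6 to 21.02) and *Irs2* (12.0, others 18.2 to 21.1) were both low. These libraries were kept, and the cause of these values was not tested.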

How the results depend on the processing

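Values below are from alternatives that moved a result; the cause was not tested. In WT-ORX against WT-sham 0 members were called with library-size scaling, 0 in a fit of only the groups compared, and 4 at a q of 0.05. Over all genes 776, 921 and 1735 (9.91%) were called in the same order. Leaving out 1 library gave 0 to 1 members. The log2 fold change of *Igf1* there was -0.004 with thinned counts, and -0.016 to 0.13 with 1 library left out. In KO-ORX against KO-sham 2 members were called with DESeq2, 4 with library-size scaling and 3 at 0.05. Over all genes 1366, 900 and 1925 (11%) were called in the same order. A fit of only those groups called 485 genes (589 to 1116 with 1 library left out). In KO-ORX against WT-ORX 0 members were called with library-size scaling, 0 with only those groups, 0 with a replicate block and 2 at 0.05 (0 to 1 with 1 left out). Over all genes 473, 473, 627 and 1260 (7.19%) were called in these 4 settings. The genotype by ORX interaction called 127 genes with DESeq2, 10 with limma-voom and 16 with thinned counts (2 to 38 with 1 left out).

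In WT-DHT against WT-empty 2 members were called with DESeq2 and 3 at 0.05 (1 to 2 with 1 left out). Over all genes 2301 were called with DESeq2 and 3078 (18.1%) at 0.05. In KO-DHT against KO-empty 0 members were called with limma-voom, 0 with library-size scaling, 0 with only those groups and 2 at 0.05 (0 to 1). Over all genes 726, 608, 505 and 1840 (10.8%) were called in the same order, and 1201 with DESeq2. The log2 fold change of *Igf1* there ran from -0.075 to 0.076 with 1 library left out. KO-empty against WT-empty called 290 genes with only those groups (450 to 700 with 1 left out). KO-DHT against WT-DHT called 1 member with only those groups and 1 at 0.05 (0 to 1). Over all genes it called 1940 with only those groups and 3170 (18.7%) at 0.05.

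With the replicate number as a block, KO-sham against WT-sham called 2 members in place of 3, *Irs2* having q = 0.013. Over all genes it called 921 in place of 928. *Irs2* in KO-ORX against WT-ORX had q = 0.011 and *Stat5b* in KO-sham against WT-sham q = 0.011 in that fit, both above the threshold of 0.01. The gastrocnemius samples share only a number: 7 of 23 libraries correlated best with a library of their own number, and the median correlation of libraries with the same number ran from -0.028 to 0.043 over the pairs of groups, so the data do not show that the numbers pair the samples. Spinalis columns carry mouse codes and no replicate number, so no block was fitted there.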
